A study of Mus musculus with 6 samples.

Results

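The genes described here are 37 genes of epithelial junctions and epithelial identity, taken by gene symbol from a fixed list. All 37 were found among the 11452 genes of the table, and all 37 passed the filter on low values. They fall into 7 groups by role: keratins of simple epithelia, adhesion molecules, tight junction and apical polarity proteins, desmosome proteins, regulators of transcription and splicing, membrane serine proteases with their inhibitors, and proteins of epithelial sorting. They were measured by RNA sequencing in cell pools of the mouse mammary tumour line 4T1. The cells were either Myosin 1e KO, with Myo1e (a class I myosin motor gene) knocked out, or Myosin 1e WT. Each genotype had 3 libraries, and no drug treatment or time course is given. The sources used here do not give how the knockout was made or what a pool consists of. The samples are called biological replicates, and p-values measure the spread between these libraries only.

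In both genotypes the columns of the table are numbered 1, 2 and 4, and libraries are named here by genotype and that number. Titles run from pool 1 to pool 3, so no title holds a 4, and the sources used here do not say what it stands for. KO 4 and WT 4 stood apart from the other 4 libraries, and each genotype holds 1 of them. Every result is therefore given first between genotypes and then between the 2 libraries numbered 4 and the 4 libraries numbered 1 or 2.

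Epithelial cells hold together through layered junctions. Tight junctions seal the space between neighbours and mark the border of the apical membrane, adherens junctions join the cells through E-cadherin, and desmosomes anchor the keratin filaments of one cell to those of the next. Grainyhead-like, Ovol and Elf3 transcription factors and the Esrp splicing factors maintain these programmes, and transcription factors of the Snail and Zeb families bind E-box sequences and repress several of the genes when cells move towards a mesenchymal state.

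Recovered reads numbered 17772003 to 19988206 per library. Myo1e (GRCm38 chr9:70207350-70399766, plus strand) had log2 CPM (log2 of read counts scaled per library) of 6.87 (KO 1), 6.81 (KO 2) and 6.81 (KO 4), against 7.09 (WT 1), 7.02 (WT 2) and 6.91 (WT 4). All KO libraries were below all WT libraries, but the difference of -0.18 (SE 0.09) had an adjusted p of 0.9999 with limma, and of 0.32 with the library number as a block. A level summed over the whole gene does not show whether a part of it was deleted. The epithelial label was met by Cdh1, Epcam, Krt8 and Krt18, all 4 of which were detected in every library. Of 19 mesenchymal genes, 7 were in the table. Among these Vim had log2 CPM of 10.4 to 11.4, above the 4 epithelial markers in every library. Among markers of other cell types, 0 of 9 endothelial and 0 of 4 adipocyte genes were in the table, with 2 of 12 for fibroblasts (Pdgfra and Postn), 2 of 13 for leukocytes (Cd68 and Cd74) and 1 of 6 for myoepithelial cells (Krt14). Of 13 mitochondrially encoded genes, 7 were in the table, and these held 0.309% to 0.493% of the recovered reads. The whole mitochondrial share of the libraries cannot be read from them.

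Promoter sequences from RefSeq (GRCm38.p6) were matched for 23 of the 37 members, with 29 start sites. They are shown because many of these genes are known targets of E-box binding repressors and because several differed between the libraries. The 5 members shown are those with the largest difference, in either direction, between the libraries numbered 4 and the others among the members matched. The 250 bases before the first listed start are printed 5′ to 3′ on the gene's strand, and capitals mark the E-box CAGGTG or its reverse complement CACCTG. The intervals are chr10:81291268-81291517 (minus strand) for Tjp3, chr17:57061951-57062200 (plus) for Crb3, chr15:102004343-102004592 (minus) for Krt8, chr4:135573633-135573882 (minus) for Grhl3 and chr5:134946935-134947184 (minus) for Cldn4.
Tjp3: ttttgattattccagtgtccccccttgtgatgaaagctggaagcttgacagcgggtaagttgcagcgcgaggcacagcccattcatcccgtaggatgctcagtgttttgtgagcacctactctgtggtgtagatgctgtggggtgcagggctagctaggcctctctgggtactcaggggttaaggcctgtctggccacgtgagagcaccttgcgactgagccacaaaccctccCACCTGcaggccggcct
Crb3: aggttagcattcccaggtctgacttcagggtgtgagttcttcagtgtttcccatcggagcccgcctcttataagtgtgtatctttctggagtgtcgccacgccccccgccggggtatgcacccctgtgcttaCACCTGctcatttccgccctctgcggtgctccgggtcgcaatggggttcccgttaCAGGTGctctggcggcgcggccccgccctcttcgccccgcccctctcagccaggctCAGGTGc
Krt8: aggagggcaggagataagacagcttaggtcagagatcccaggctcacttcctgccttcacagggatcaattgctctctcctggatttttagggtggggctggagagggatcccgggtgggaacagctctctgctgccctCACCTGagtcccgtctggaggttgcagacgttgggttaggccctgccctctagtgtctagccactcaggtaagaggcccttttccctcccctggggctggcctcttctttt
Grhl3: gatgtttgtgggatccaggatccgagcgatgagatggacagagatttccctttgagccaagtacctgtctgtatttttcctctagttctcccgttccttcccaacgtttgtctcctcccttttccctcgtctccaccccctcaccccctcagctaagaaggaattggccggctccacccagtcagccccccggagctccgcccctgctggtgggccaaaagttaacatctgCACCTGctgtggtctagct
Cldn4: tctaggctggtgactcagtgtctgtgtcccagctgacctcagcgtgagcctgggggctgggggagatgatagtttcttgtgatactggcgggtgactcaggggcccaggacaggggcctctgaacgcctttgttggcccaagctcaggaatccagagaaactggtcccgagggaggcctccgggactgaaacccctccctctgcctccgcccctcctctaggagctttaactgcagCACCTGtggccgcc
The E-box began 17 bases before the start in Tjp3, 19 in Grhl3, 14 in Cldn4 and 111 in Krt8. Crb3 held 3 of them, beginning 118, 63 and 7 bases before the start. CAGGTG on either strand was present in 16 of the 29 member promoters (55.2%), against 17.2% of all 32851 promoters of the same length. Both shares count start sites and not genes, and the windows of the 2 Crb3 starts overlap and hold the same E-boxes. By gene, 14 of the 23 matched members held it, and the share over all genes was not computed. The 14 members with a match were Ap1m2, Cldn4, Cldn7, Crb3, Elf3, Epcam, Grhl3, Krt18, Krt7, Krt8, Ocln, Rab25, Spint2 and Tjp3. The Grainyhead-like motif AACCNGTT, searched on both strands, was present in 2 member promoters (Cgn and Rab25), against 1.79% of all promoters. Neither motif's letters contain the other's. A match describes the sequence and is not evidence of binding.

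Between the genotypes, no member passed the test. With limma and a Benjamini-Hochberg adjusted p of 0.05 over all 11269 genes tested, 0 of 37 members were called, against a background of 0% of all genes. At an unadjusted p under 0.05, 1 member passed (Grhl1), against 0.204% of all genes. With the library number as a block, 0 members were called against 0.00887% of all genes, and 9 had an unadjusted p under 0.05 (7 lower in KO, 2 higher), against 9.91% of all genes. The fit without the block leaves the difference between library numbers in its error, so its p-values run high. Its median SE over all genes was 0.20, against 0.07 with the block. The mean was lower in KO for 27 members and higher for 10, where 52.9% of all genes were lower. The median difference of KO minus WT was -0.09 on the log2 scale over the members and -0.01 over all genes. It was -0.06 between the libraries numbered 1, -0.13 between those numbered 2 and -0.07 between those numbered 4. Without WT 4, 16 members had a lower mean in KO and the median was 0.03, but this leaves KO 4 with no WT library of its number. With the libraries numbered 1 and 2 only, which keeps the genotypes balanced, 27 members were lower in KO and the median was -0.08.

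**Figure D1:**
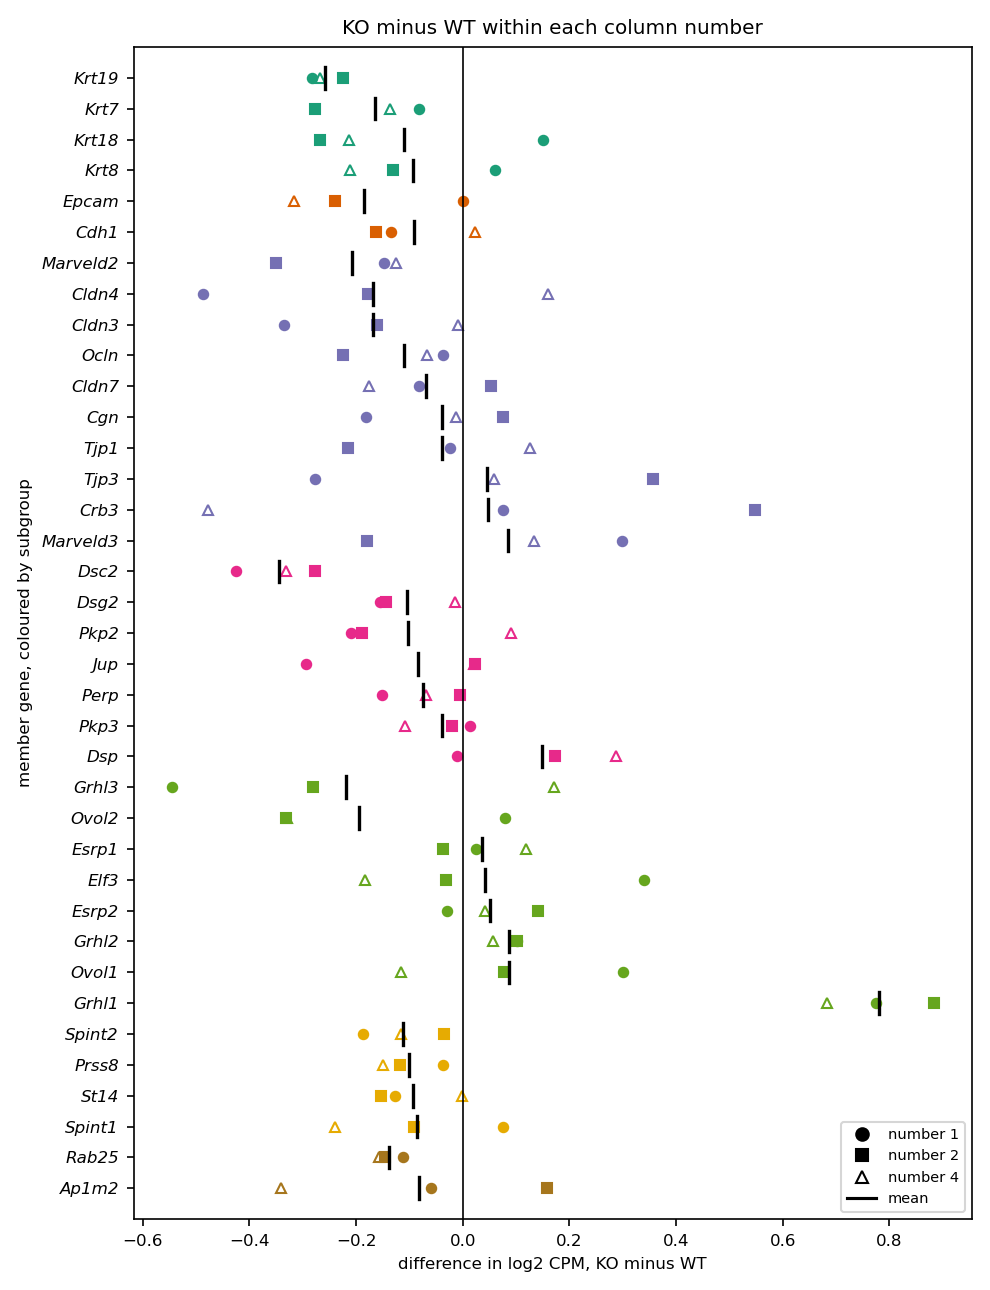
Difference of KO minus WT (log2 CPM) of each of the 37 members within library numbers 1, 2 and 4 (points) with the mean of the 3 (line). The means of all members but Grhl1 lie between -0.34 and 0.15, and Grhl1 stands at 0.78, 0.88 and 0.68.

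In all 3 pairs, 12 members were lower in KO: Krt7, Krt19, Cldn3, Ocln, Marveld2, Dsg2, Dsc2, Perp, Prss8, St14, Spint2 and Rab25. The background for this pattern was 17% of all genes. No member had all KO libraries below all WT libraries, a pattern seen in 1.59% of all genes. Krt19, a type I keratin of simple epithelia, had log2 CPM of 5.98 (KO 1), 6.26 (KO 2) and 5.82 (KO 4), against 6.26 (WT 1), 6.48 (WT 2) and 6.09 (WT 4). The genotypes overlapped, but each KO library was below the WT library of its number, by 0.28, 0.22 and 0.27. The fit with the library number as a block gave an unadjusted p of 0.00072 and an adjusted p of 0.21. Marveld2 (tricellulin), which seals the corners where 3 cells meet, was lower in KO by 0.21 on average. Under the block its unadjusted p was 0.016 and its adjusted p 0.39.

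The regulators were the group in which most members, 6 of 8, had a higher mean in KO. Grhl1, a Grainyhead-like transcription factor that controls desmosomal cadherin genes, had log2 CPM of 1.50 (KO 1), 1.67 (KO 2) and 0.98 (KO 4), against 0.73 (WT 1), 0.78 (WT 2) and 0.30 (WT 4). It was the only member with every KO library above every WT library, against 2.04% of all genes. The recovered reads behind these values were 54, 54 and 40 in KO and 31, 31 and 22 in WT. The difference was 0.78 (SE 0.28), with an unadjusted p of 0.032 and an adjusted p of 0.9999 with limma, and an adjusted p of 0.29 with the block. Grhl2, the most abundant of the 3 Grainyhead-like genes per kilobase, was higher in KO in all 3 pairs by 0.09 on average (0.03 without KO 4 and 0.16 without WT 4), and 15.6% of all genes were higher in all 3 pairs. Of the other regulators Esrp1, Esrp2, Elf3 and Ovol1 differed by 0.04, 0.05, 0.04 and 0.09, and Grhl3 and Ovol2 by -0.22 and -0.19. Across 11158 genes, transcript length correlated with the difference of KO minus WT (Spearman's rho 0.34, where the points are genes and not replicates). The median length was 2918 bases for the members and 3150.5 for all genes, and its part in the values above was not tested.

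**Figure D2:**
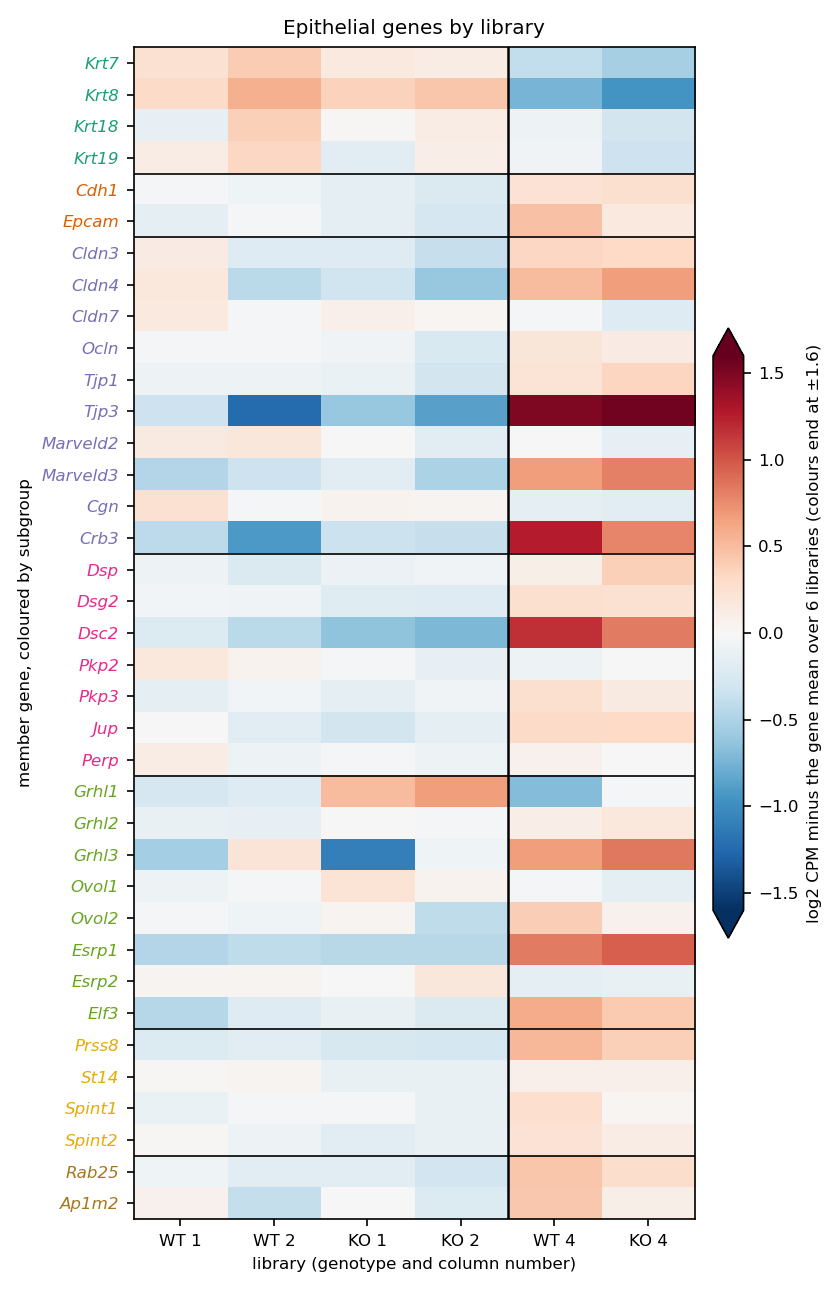
Level of each of the 37 members in the 6 libraries, as log2 CPM minus the gene's mean over the libraries, with members ordered by role. Tjp3, Crb3, Dsc2 and Esrp1 are high in KO 4 and WT 4, and Krt8 and Krt7 are low there.

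Between the library numbers, 7 of 10 tight junction and polarity members and 5 of 7 desmosome members were called higher in the libraries numbered 4, and 3 of 4 keratins lower. Of the 37 members, 22 were called higher in the libraries numbered 4, against a background of 31.8% of all genes, and 6 were called lower, against 33.8%. The other 9 were not called. In either direction 28 were called, against 65.6%. A call with a difference of at least 1 on the log2 scale was made for 6 members upwards, against 6.55% of all genes, and for 1 (Krt8) downwards, against 4.88%. The median difference was 0.34 over the members and 0.00 over all genes. It was 0.25 within the KO libraries and 0.30 within the WT libraries. In 26 members the difference was positive in both genotypes and in 9 negative in both, and in the other two (Pkp2 and Ovol1) the signs differed. Both libraries numbered 4 were above all 4 others for 25 members (background 35.8%) and below all of them for 5 (background 37%). No dependence of this difference on genotype was called: with limma, 0 genes were called for the interaction of genotype and number, and at an unadjusted p under 0.05 there were 0 members, against 3.9% of all genes. The interaction fit has 2 residual degrees of freedom and 1 library numbered 4 per genotype. It therefore has little power, and the lack of calls does not show that the genotypes were alike. KO 4 and WT 4 entered the test of number 4 against numbers 1 and 2 as 2 independent libraries. If same-numbered libraries share a source, they are a single set against 2 others, and the p-values of that test are too small. The split was also chosen with earlier results of these data known, so its p-values are not those of a comparison set in advance. In bulk RNA, fewer cells of a type and less RNA per cell cannot be told apart.

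**Figure D3:**
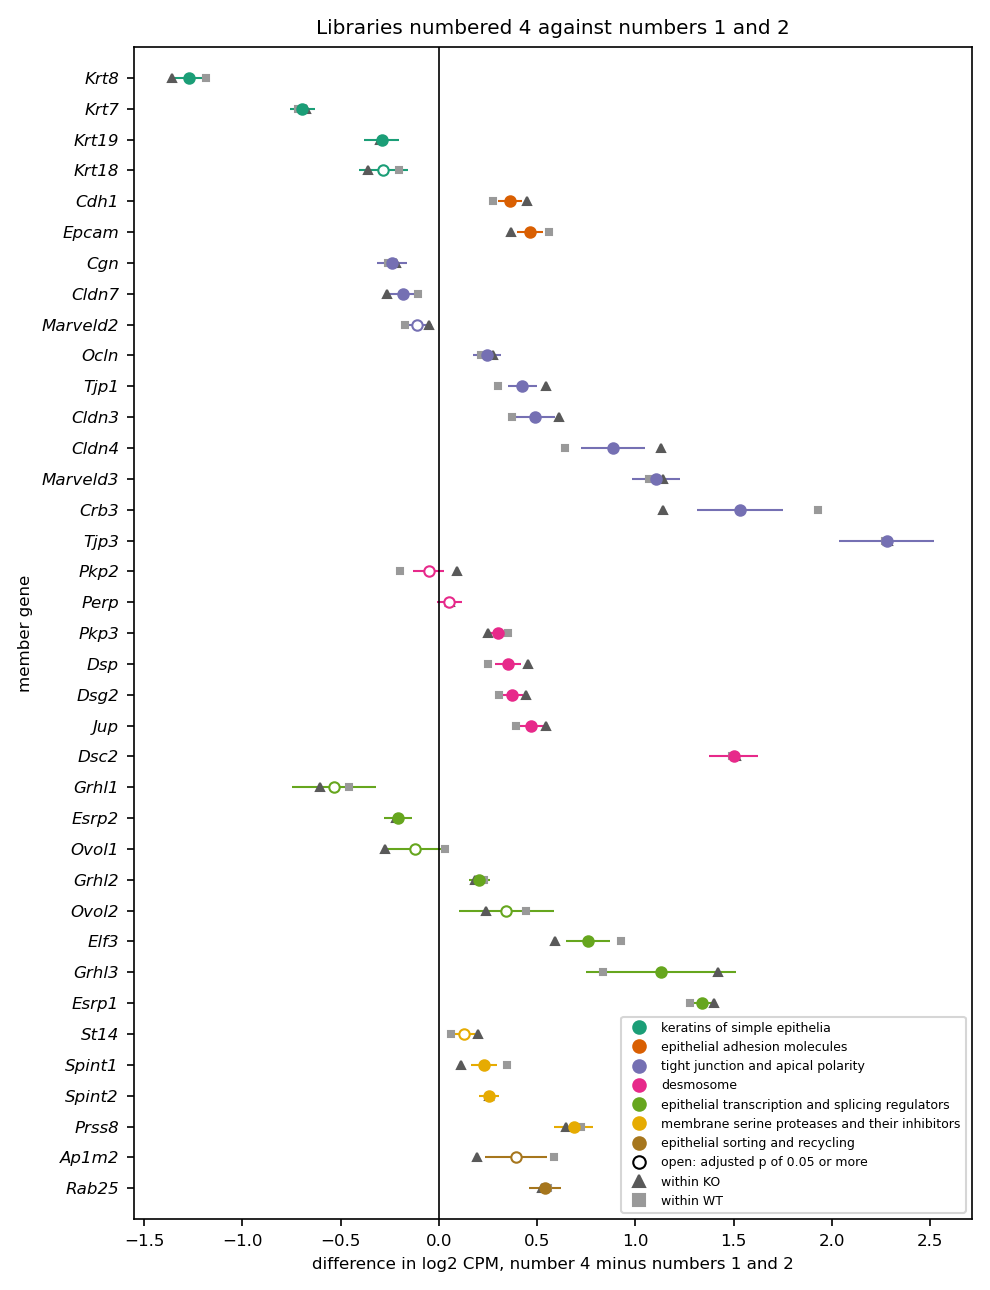
Mean of KO 4 and WT 4 minus that of the libraries numbered 1 and 2 (log2 CPM, limma estimate with its standard error) for the 37 members, by group and call. Tjp3 is the highest at 2.28 and Krt8 the lowest at -1.27.

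Keratins 7 and 8 are type II keratins, and keratins 18 and 19 are the type I partners with which they form filaments. Krt8 had log2 CPM of 10.21 (KO 1), 10.27 (KO 2) and 8.88 (KO 4), against 10.15 (WT 1), 10.40 (WT 2) and 9.09 (WT 4). The libraries numbered 4 were below all others, at 0.414-fold (log2 difference -1.27, SE 0.08, adjusted p 1.9e-06 with limma). Krt7 was at 9.31 in KO 4 and 9.45 in WT 4, against 9.97 to 10.25 elsewhere, with a difference of -0.70 (SE 0.06). Krt18 differed by -0.28 (SE 0.12, adjusted p 0.069) and was not called, though without WT 1 it differed by -0.40 with an adjusted p of 0.00015. Krt19 was called lower by 0.29 with an adjusted p of 0.017, and this call was lost without KO 4 (0.11), without WT 4 (0.098), with no variance trend (0.060) and with no genotype term (0.056).

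The partners Krt8 and Krt18 thus differed in how far they stood from the other libraries. The log2 difference of Krt8 minus Krt18 was -0.89 in KO 4 and -0.89 in WT 4, and 0.12, 0.09, 0.21 and -0.04 in KO 1, KO 2, WT 1 and WT 2. The 4 keratins held 0.217% and 0.242% of the reads in KO 4 and WT 4, and 0.321% to 0.394% in the other libraries. The share of recovered reads held by all 37 members was 0.654% and 0.670% in KO 4 and WT 4, inside the range of 0.627% to 0.703% of the others. On the deposited CPM scale their sum was 6139.5 in KO 4 and 6430.3 in WT 4. That was below the others, at 6443.1 to 7236.6, so the reading depends on the scale. Per kilobase of transcript, Krt18 (803 ± 123 CPM, SD, n = 4 libraries numbered 1 or 2) and Krt8 (626 ± 48.4) were the most abundant members, and Grhl3 (0.335 ± 0.130) the least abundant.

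Both adhesion molecules were higher in the libraries numbered 4. Cdh1 (E-cadherin, the adherens junction cadherin) had log2 CPM of 9.22 (KO 1), 9.15 (KO 2) and 9.64 (KO 4), against 9.36 (WT 1), 9.31 (WT 2) and 9.61 (WT 4). It was above all the others in both, with a difference of 0.36 (SE 0.06, adjusted p 6.1e-04 with limma). Epcam, an epithelial adhesion glycoprotein, differed by 0.46 (SE 0.07).

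Of the 10 tight junction and polarity genes, 7 were called higher and 2 lower. Tjp3 (ZO-3, a scaffold that ties claudins to actin) had log2 CPM of 1.58 (KO 1), 1.31 (KO 2) and 3.73 (KO 4), against 1.86 (WT 1), 0.95 (WT 2) and 3.67 (WT 4). The recovered reads were 57, 42 and 276 in KO and 69, 35 and 238 in WT. It was the member with the largest difference, 4.85-fold (log2 difference 2.28, SE 0.24, adjusted p 3.5e-05 with limma). Its relative Tjp1 (ZO-1) was more abundant, at 39.1 ± 2.67 CPM per kilobase against 0.894 ± 0.238 (SD, n = 4 libraries numbered 1 or 2), and differed by 0.42 (SE 0.07).

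Crb3, the crumbs protein that sets up the apical domain, had 72 (KO 1), 63 (KO 2) and 170 (KO 4) reads, against 68 (WT 1), 46 (WT 2) and 213 (WT 4). Both libraries numbered 4 were above the rest, with a difference of 1.53 (SE 0.22). Marveld3, a tetraspan tight junction protein, was higher by 1.10 (SE 0.12), while its relative Marveld2 was not called (-0.11, SE 0.07).

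The claudins form the seal itself, and their differences were not of 1 sign. Cldn4 had log2 CPM of 7.55 (KO 1), 7.26 (KO 2) and 8.53 (KO 4), against 8.03 (WT 1), 7.44 (WT 2) and 8.37 (WT 4), a difference of 0.89 (SE 0.16). Cldn3 differed by 0.49 (SE 0.10), with an adjusted p of 0.054 without KO 4. Cldn7 was called lower, by 0.18 (adjusted p 0.048), and lost the call when any library other than WT 2 was left out (adjusted p 0.058 to 0.42), with a difference of -0.10 without KO 4. It also lost the call under quantile normalization (0.090), with no variance trend (0.096) and with no genotype term (0.051). Cgn (cingulin), a cytoplasmic plaque protein, was called lower by 0.24 and lost the call without KO 1 (0.059), KO 4 (0.094) or WT 4 (0.14), under quantile normalization (0.088) and with no variance trend (0.066). Ocln (occludin) was called higher by 0.25 and lost the call without KO 4 (0.14) or WT 4 (0.061).

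Among the 7 desmosome genes, 5 were called higher and 0 lower. Dsc2, a desmosomal cadherin, had log2 CPM of 2.34 (KO 1), 2.26 (KO 2) and 3.81 (KO 4), against 2.76 (WT 1), 2.54 (WT 2) and 4.14 (WT 4). It was 2.83-fold higher in the libraries numbered 4 (log2 difference 1.50, SE 0.12). Dsg2, the other cadherin of the group, differed by 0.37 (SE 0.06). Of the plaque proteins that link these cadherins to keratin, Jup (plakoglobin) differed by 0.47, Dsp (desmoplakin) by 0.35 and Pkp3 (plakophilin 3) by 0.30. Pkp2 (-0.05) and Perp (0.05) were not called.

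Among the 8 regulators, 4 were called higher and 1 lower, where 31.8% of all genes were higher and 33.8% lower. Esrp1, an epithelial splicing factor, had log2 CPM of 6.32 (KO 1), 6.32 (KO 2) and 7.72 (KO 4), against 6.30 (WT 1), 6.36 (WT 2) and 7.61 (WT 4). The libraries numbered 4 were above all others, and the difference was 2.53-fold (log2 difference 1.34, SE 0.06, adjusted p 2.3e-07 with limma). Its paralogue Esrp2 was called lower by 0.21, a call lost without KO 2, KO 4 or WT 4 (adjusted p 0.075 to 0.15). The log2 difference of Esrp1 minus Esrp2 was therefore 2.47 and 2.39 in KO 4 and WT 4 and 0.77 to 0.94 in the others.

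**Figure D4:**
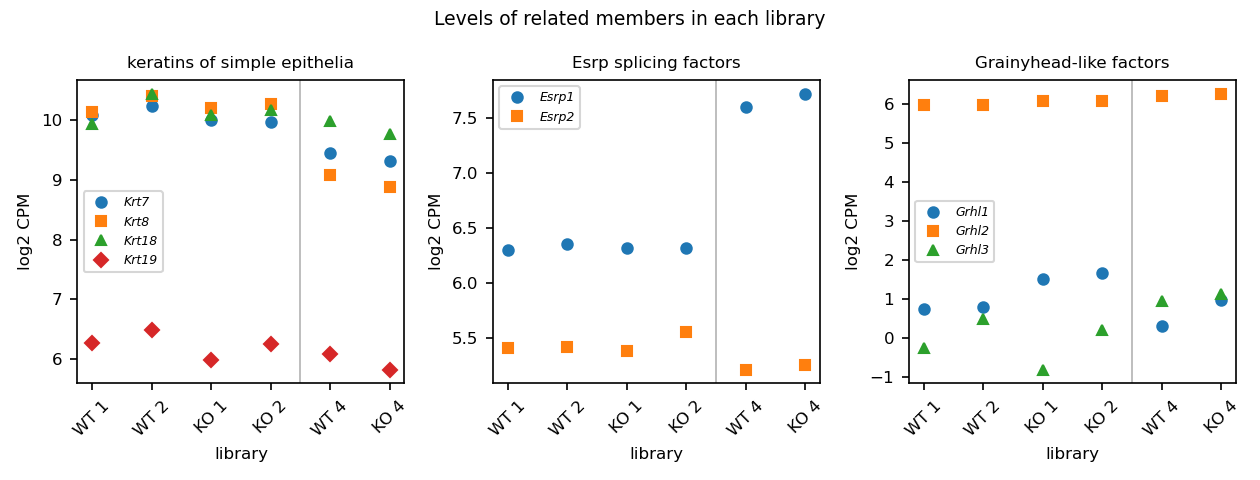
Levels (log2 CPM) of keratins, Esrp and Grainyhead-like genes in each library, with a line before the libraries numbered 4. Krt8 is below Krt18 there by 0.89, and Esrp1 is at 7.61 and 7.72 with Esrp2 at 5.21 and 5.26.

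Elf3, an epithelial Ets factor, was higher by 0.76 (SE 0.11). Grhl3 was called higher by 1.13 (SE 0.38, adjusted p 0.027) from 10 (KO 1), 19 (KO 2) and 44 (KO 4) reads, against 15 (WT 1), 25 (WT 2) and 35 (WT 4). That call was lost without KO 1, KO 4 or WT 4 (adjusted p 0.057 to 0.26) and under quantile normalization (0.082). Grhl2 was called higher by 0.21, lost without WT 4 (0.089). Grhl1 differed by -0.53 (adjusted p 0.052), the opposite sign to the other two, and was called lower under 6 of the alternatives (lowest adjusted p 0.0025, with no variance trend). Ovol1 and Ovol2, zinc finger factors that oppose mesenchymal genes, were not called.

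Prss8 (prostasin) and St14 (matriptase) are membrane serine proteases of epithelia, and Spint1 and Spint2 inhibit them. Prss8 was higher by 0.69 (SE 0.10), Spint2 by 0.26 and Spint1 by 0.23, the last of which differed by 0.11 without WT 4 and lost its call (adjusted p 0.28). St14 was not called (0.13). Of the sorting genes, Rab25, a recycling GTPase, was higher by 0.54 (SE 0.08), and Ap1m2, an adaptor subunit for basolateral sorting, was not called (0.39, adjusted p 0.054). With 1 library left out Ap1m2 differed by 0.20 (without WT 4) to 0.59 (without KO 4), and it was called under 5 of the alternatives (adjusted p 0.023 to 0.048). Exons of 14 members share 14 to 690 bases with a gene on the opposite strand (Krt7, Krt8, Cldn3, Tjp3, Crb3, Dsp, Dsg2, Grhl2, Ovol1, Ovol2, Esrp1, Esrp2, Elf3 and Prss8). The sources used here do not give the strand setting of the counting, so reads in those bases could belong to either gene.

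Members called higher held the E-box in 9 of the 14 that had a promoter sequence, those called lower in 3 of 4, and those not called in 2 of 5. The sequence printed for Krt8, the member with the largest negative difference, held it as did that of Tjp3, the member with the largest positive one.

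The further lists are read against the same shares of all genes, 31.8% called higher and 33.8% called lower. Of 10 cadherin, catenin and nectin partners, 4 were called higher in the libraries numbered 4 and 6 lower, with a median of -0.25. Vcl (vinculin, which links catenins to actin) differed by -0.87 (SE 0.05) and Nectin1 by -0.78, whereas Arvcf, a catenin, differed by 1.00. Of 22 other tight junction and polarity genes, 10 were called higher and 5 lower, with Cxadr at 1.07, Pard3 at 0.84 and Dlg1 at 0.57. Of 4 other desmosome and plaque genes, 0 were called higher and 3 lower (Pkp1, Ppl and Pkp4).

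Of 7 mesenchymal genes tested, 1 was called higher and 4 lower, against the same 31.8% and 33.8%. Vim (vimentin), Itga5 and Cd44 differed by -0.87, -0.84 and -0.84. The gene called higher was Fn1 (fibronectin, named after its values were seen), by 0.66 (SE 0.09). Of 6 transcription factors of the epithelial to mesenchymal transition, Tcf4 was called higher by 0.49, and Snai1 and Foxc2 lower by 0.42 and 0.39. The other 3, named after their values were seen, were not called. Zeb1 differed by 0.48 (SE 0.36), Zeb2 by 0.16 (SE 0.07) and Twist1 by -0.13 (SE 0.09). Markers of other cells are given beside these values. The 2 leukocyte genes summed to 59.7 and 71.5 CPM in KO 4 and WT 4 and to 11.2 to 34.4 in the others. Cd74 was called higher by 2.37, and Cd68 was not called (-0.27, adjusted p 0.36). The pan-leukocyte marker Ptprc was on the leukocyte list but not among the genes of the table. The fibroblast list summed to 71.0 and 51.5 CPM in KO 4 and WT 4 and to 29.9 to 76.8 in the others, so the ranges overlapped. The myoepithelial marker Krt14 fell by 1.44. Mitochondrially encoded genes were called lower for 6 of 7. Between the genotypes, 0 genes of any of these lists were called. All 7 mitochondrially encoded genes were higher in KO in all 3 pairs (background 15.6%), with a median of 0.19, and 5 had an unadjusted p under 0.05 with the block (background 9.91%). The part of these markers in the members' differences was not tested.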

How the data were processed

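Pools of 4T1 cells of 2 genotypes were sequenced, with 3 libraries each. The submitters' processing notes name GRCm38, edgeR, featureCounts (Subread 1.6.4), STAR 2.7.3a and Trimmomatic 0.39. The deposited values are log2 CPM with a prior, and no listed gene reaches log2 CPM 0 in fewer than 2 libraries. The sources used here do not give the annotation release, strand setting or normalization. CPM summed over the genes tested was 1.02e+06 to 1.03e+06 in the libraries numbered 1 and 2. It was 9.38e+05 in KO 4 and 9.60e+05 in WT 4. The scaling thus held a factor beyond library size, which enters every difference of the libraries numbered 4. Columns numbered 4 were matched to a genotype only.

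After subtracting the lowest linear value, 100% of values were whole reads within a tolerance of 0.01. A count of 3 reads corresponds to 0.144 to 0.173 CPM, which covers counting error only.

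Differences were fitted on the deposited log2 CPM with limma 3.58.1 (R 4.3.3, variance trend, two-sided). A gene was tested where 3 or more libraries reached log2 CPM 0, which kept 11269 and dropped 183. KO was compared with WT without covariates, and number 4 with numbers 1 and 2 with genotype as a covariate. The fits were run on simulated data. For KO against WT these data held no number 4 difference, so that fit was not tested as used here. Fold changes on this scale understate those of weak genes.

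Deviations of same-numbered KO and WT libraries from their genotype means correlated at 0.744, 0.784 and 0.921 across genes for numbers 1, 2 and 4. KO 1 with WT 2 and KO 2 with WT 1 gave 0.687 and 0.617, so numbers 1 and 2 are set apart less clearly than 4. No label pairs them, and these correlations were the ground for treating same-numbered libraries as pairs. A fit with a replicate block was added. Gene models were GENCODE vM21, and transcript length is that of the longest coding transcript.

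The members and lists were chosen with earlier results of these data known. All members are accounted for, and up to 3 genes with the smallest p per further list and comparison could be named. Genes named after their values were seen are marked as such. Alternatives changed the filter, pseudocount (1 and 0.25), scaling, variance model and libraries, or used limma voom on the recovered reads.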

Additional observations from a re-analysis of the deposited data

How the results depend on the processing

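Between the genotypes, 0 members were called under every alternative run. The replicate block called 1 gene of all tested and changed no other call. With 1 library left out, 0 genes were called, the number of members with a lower mean in KO ranged from 16 to 30, and their median from -0.19 to 0.03, the extremes of 16 and 0.03 being those without WT 4. The difference of KO minus WT ranged from -0.40 to 0.0593 for Krt7 and from -0.0027 to 0.23 for Dsp (opposite in sign to the full set without KO 4), and from -0.31 to 0.0020 for Epcam and from -0.85 to 0.15 for Dsc2 (opposite without WT 4). Leaving out 1 library leaves the numbers unequal between genotypes. Between the numbers, members called higher ranged from 19 to 23 and those called lower from 2 to 6 with 1 library left out, 2 without KO 4 or without WT 4. The members' median ranged from 0.25 to 0.34 and was 0.25 with the KO libraries only. Pkp2, not called, differed by 0.0073 under quantile normalization and by -0.20 to 0.0926 with 1 library left out, and Ovol1, not called, by -0.27 to 0.0302. Over the single members, 542 values kept direction and call, 29 lost the call, 15 gained it and 3 changed sign. Why was not tested. Members with few reads, such as Grhl3 with 10 in KO 1, are limited by depth.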

Other observations

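Of 17 other epithelial genes tested, 5 were called higher in the libraries numbered 4 and 7 lower, near the 31.8% and 33.8% of all genes. Cd24a, a surface glycoprotein, was at 7.77 and 7.82 log2 CPM in KO 4 and WT 4 against 8.86 to 8.94 elsewhere, a difference of -1.09 (SE 0.05). Sfn (14-3-3 sigma) differed by -1.73 (SE 0.13) and the transcription factor Klf4 by 1.22 (SE 0.10). All 3 basal keratins tested were called lower, with Krt16 at -2.07, Krt14 at -1.44 and Krt17 at -0.95. Between the genotypes, Sparc, a secreted matrix protein of the mesenchymal list, had log2 CPM of 7.10 (KO 1), 7.04 (KO 2) and 7.11 (KO 4), against 7.40 (WT 1), 7.55 (WT 2) and 7.35 (WT 4). The KO libraries were all below the WT libraries by a mean of 0.35, with an unadjusted limma p of 0.010, and the gene was not called after adjustment.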
